A study of Arabidopsis thaliana with 18 samples.

Results

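ECAP, NINJA and the 5 TOPLESS genes encode adaptors and co-repressors of transcription, 7 genes among the 22209 listed in the tables. They were taken by locus: AT3G58110 (ECAP), AT4G28910 (NINJA), AT1G15750 (TPL), AT1G80490 (TPR1), AT3G16830 (TPR2), AT5G27030 (TPR3) and AT3G15880 (TPR4, named WSIP2 in RefSeq). The rule names loci and has no cutoff on expression, and all 7 passed the filter on low values. The gene table holds no name for AT3G58110, and general knowledge was the basis for calling it ECAP. RNA was sequenced from whole Arabidopsis thaliana seedlings of ecap-2, a mutant of ECAP, and of the wild type Col-0. Seedlings were 6 days old, and the treated ones spent 1 or 3 h on medium holding jasmonic acid (JA) at 50 µM. The 6 groups were ecap-2 at 0 h without JA, ecap-2 after 1 h on JA, ecap-2 after 3 h on JA, and wild type at the same 3 times, with 3 libraries each and 18 in all. The titles call the wild type 0 h libraries controls and the ecap-2 ones JA-treated for 0 h, while the sample records mark both as untreated. Every seedling grew on sucrose medium, and the sources used here do not give the kind or position of the ecap-2 lesion or the number of lines used. Seedlings transferred without JA were not analysed here, which leaves the effects of transfer, hour of sampling and JA mixed.

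JA acts through its conjugate with isoleucine, which joins the receptor COI1 to JAZ proteins and leads to their breakdown. Until then JAZ proteins hold MYC transcription factors in check, and NINJA, an adaptor with an EAR motif, ties many of them to TOPLESS. TPL and its relatives TPR1 to TPR4 are Groucho-like co-repressors that bind EAR motifs and bring in histone deacetylases, and they serve auxin, brassinosteroid, strigolactone and defence repressors as well. By the series title, ECAP is likewise an adaptor, one that ties JAZ proteins to TPR2. The measurements below are of RNA only, whereas these proteins are known to act by binding one another.

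TPL and TPR1 are the closest pair of the family, which bears on whether reads can be told apart. Their coding sequences (TAIR10.1, from the RefSeq annotation) were 86.8% identical, against 67.2% to 70.8% for the other pairs of the family. The longest run of bases that the 2 transcripts share was 56 bases long. Of the 50-base stretches of TPL, 0.17% were also in TPR1, and of the 100-base stretches 0%. The run is shown with 40 bases on each side, introns left out, from the minus strand of chromosome 1. Capitals mark the 6 bases that differ between the genes, and no capital falls within the shared run.
TPL (chr1:5420086-5420321): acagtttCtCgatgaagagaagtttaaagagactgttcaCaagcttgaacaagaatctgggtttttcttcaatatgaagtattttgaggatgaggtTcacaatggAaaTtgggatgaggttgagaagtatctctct
TPR1 (chr1:30266201-30266408): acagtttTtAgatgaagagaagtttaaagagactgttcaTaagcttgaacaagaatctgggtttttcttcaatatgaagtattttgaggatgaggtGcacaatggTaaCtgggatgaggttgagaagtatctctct
The RNA levels of the pair moved apart under JA, as given below. The read length and the treatment of reads with several matches are not given in the sources used here.

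The promoters of the family are shown because its members did not share a response to JA. Each window runs from 250 bases before the annotated start to 50 bases from it (TAIR10.1, own strand). No G-box (CACGTG), the site MYC2 is best known to bind, was found in any of the 7 windows, and 8.42% of the windows of 22122 genes hold one. Its variant CACATG, read on the other strand as CATGTG, was in none of the 7 and in 13.1% of all windows. GATAAG, read on the other strand as CTTATC, was looked for only after the sequences had been read. It occurred in 4 of the 5 TOPLESS windows, with 2 copies each in TPL and TPR1 and 3 each in TPR2 and TPR3. None was in the windows of TPR4, NINJA or ECAP. At least 1 copy was in 14.7% of all windows and at least 2 in 1.49%. Since the motif was looked for after these windows had been read, setting the family beside these shares is no test of enrichment. The windows that hold it are printed with the copies in capitals.
TPL (chr1:5420984-5421283, minus strand): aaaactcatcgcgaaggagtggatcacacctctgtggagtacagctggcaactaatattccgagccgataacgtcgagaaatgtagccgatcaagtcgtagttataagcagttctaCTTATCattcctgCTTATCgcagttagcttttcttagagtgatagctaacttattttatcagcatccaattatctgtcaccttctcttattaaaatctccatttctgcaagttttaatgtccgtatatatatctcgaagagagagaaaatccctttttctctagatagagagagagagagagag
TPR1 (chr1:30267076-30267375, minus strand): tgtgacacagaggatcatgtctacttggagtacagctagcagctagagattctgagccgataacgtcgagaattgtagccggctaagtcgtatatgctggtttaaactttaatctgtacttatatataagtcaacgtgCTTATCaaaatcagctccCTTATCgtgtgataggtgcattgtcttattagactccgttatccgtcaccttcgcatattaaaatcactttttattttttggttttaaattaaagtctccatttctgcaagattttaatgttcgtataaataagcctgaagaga
TPR2 (chr3:5731269-5731568, plus strand): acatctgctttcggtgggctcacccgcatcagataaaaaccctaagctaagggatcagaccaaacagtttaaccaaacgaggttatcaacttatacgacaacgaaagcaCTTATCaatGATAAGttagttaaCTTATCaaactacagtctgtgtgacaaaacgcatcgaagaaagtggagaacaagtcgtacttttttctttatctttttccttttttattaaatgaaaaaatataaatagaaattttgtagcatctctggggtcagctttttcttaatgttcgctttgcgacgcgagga
TPR3 (chr5:9515516-9515815, minus strand): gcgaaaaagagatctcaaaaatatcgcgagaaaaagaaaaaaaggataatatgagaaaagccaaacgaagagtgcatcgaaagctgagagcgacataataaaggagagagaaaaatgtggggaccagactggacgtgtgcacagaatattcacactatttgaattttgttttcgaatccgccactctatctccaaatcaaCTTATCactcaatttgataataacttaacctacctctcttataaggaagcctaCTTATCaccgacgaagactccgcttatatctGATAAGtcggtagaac
In TPL the copies began 134 and 121 bases before the start, in TPR1 112 and 94 bases before it, and in TPR2 141, 132 and 118 bases before it. TPR3 had 1 copy 50 bases before the start and the other two after it. The TPL and TPR1 windows were 70.8% identical over their aligned bases, with a longest shared run of 19 bases, while no other pair of windows shared a run over 11 bases. A match of letters is a description, and none of these windows was tested for binding.

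The libraries had 20136 to 20520 genes above 0. In FPKM (fragments scaled by transcript length and by the mapped total), the libraries summed to between 853858 and 912834 in ecap-2 after 3 h, between 760383 and 801831 in the other ecap-2 groups, and between 687996 and 765209 in wild type. How many reads stand behind an FPKM is unknown. The leaf genes RBCS1A (9145 to 17070 FPKM as group means) and LHCB1.3 (8341 to 14480 FPKM) and the root gene PYK10 (2116 to 4805 FPKM) were all abundant. The seed storage genes were low, with group means of 0.722 to 13.7 FPKM for CRA1 and 0.101 to 0.651 FPKM for CRB. In whole seedlings, fewer cells of a type and less RNA per cell cannot be told apart. RBCS1A was higher in ecap-2 at each time (log2 difference 0.61, 0.60 and 0.87 at 0, 1 and 3 h). Of the 2 leaf genes tested, 1 passed as higher in ecap-2 at 0 h, 1 at 1 h and 2 at 3 h. PYK10 was higher in ecap-2 at each time as well (0.35, 0.27 and 0.27). Of the other root markers tested, IRT1, the iron transporter gene, was lower in ecap-2 at 0 and 1 h (14.3 ± 7.2 FPKM in ecap-2 and 59.3 ± 12.3 FPKM in wild type at 0 h, log2 differences -2.06 and -1.17), and SHR was higher at 3 h alone (0.33, adjusted p = 0.014). The part of such differences in the results below was not tested. Nothing in the labels ties replicates to separate cultures, and each p-value here measures the spread among the samples at hand, part of which may be technical.

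In the wild type at 0 h the 7 genes spanned 8.68 to 55.9 FPKM. TPL was the most abundant, at 55.9 ± 5.4 FPKM, above 87.0% of the tested genes. TPR2 followed at 30.3 ± 1.4, TPR4 at 29.2 ± 1.7, NINJA at 24.0 ± 1.7, TPR1 at 19.1 ± 1.2, ECAP at 15.1 ± 0.9 and TPR3 at 8.68 ± 0.24 FPKM (SD, n = 3 each). Within that group TPR2 and TPR4 overlapped, and every other neighbouring pair lay apart in all 3 libraries. In ecap-2 at 0 h the order ran TPL, TPR4, NINJA, TPR2, TPR1, TPR3 and ECAP, and there only NINJA and TPR2 overlapped. NINJA moved up this order with JA. At 1 h NINJA was the highest of the 7 in both genotypes, apart from TPL in ecap-2 (55.0 ± 2.4 against 45.9 ± 0.8 FPKM) and overlapping it in wild type (47.7 ± 4.7 against 45.9 ± 3.1 FPKM). At 3 h TPL was on top again and NINJA next. TPR1 then came next in both genotypes, and TPR1, TPR2 and TPR4 overlapped in wild type.
Some orders held in every library. TPR1 exceeded TPR3 in 18 of 18 libraries (mean log2 ratio 1.29), and in the 9 wild type libraries ECAP lay between them, above TPR3 in 9 of 9 (0.76) and below TPR1 in the same 9 (log2 ratio of TPR1 to ECAP 0.52). The order of TPL, NINJA, TPR4, TPR2 and TPR1 changed between groups, as given above.

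**Figure D1:**
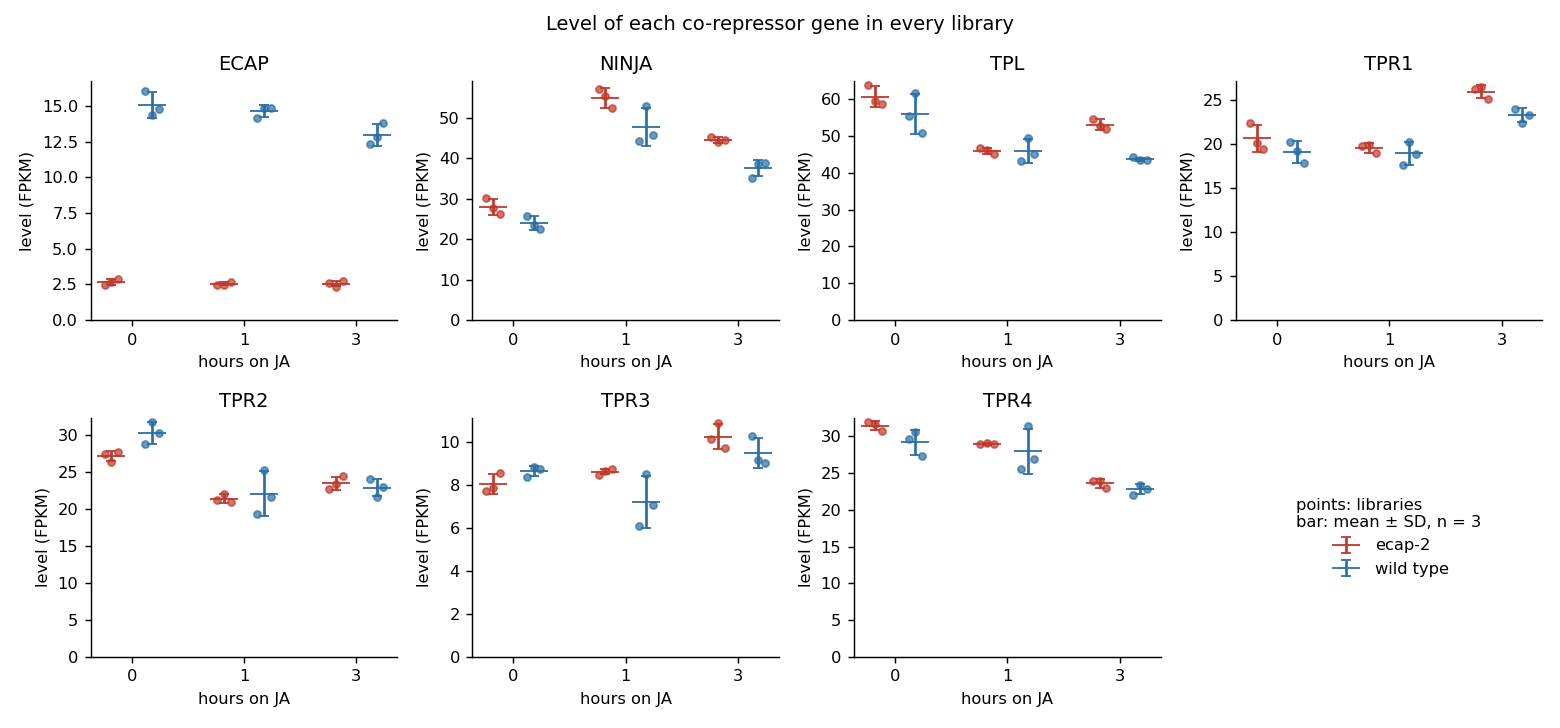
Level of each of the 7 genes in FPKM against hours on JA, with ecap-2 left of wild type. Points are libraries and bars are mean ± SD (n = 3). NINJA peaks at 1 h in both genotypes, and ECAP lies at 2.34 to 2.89 FPKM in ecap-2 and 12.3 to 16.1 FPKM in wild type.

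On JA the RNA of most of these genes changed, by modest amounts and in different directions. NINJA about doubled within 1 h in both genotypes, at 1.96 times its 0 h mean in ecap-2 and 1.99 times in wild type. TPL and TPR2 fell within the same hour, and TPR4 fell by 3 h. TPR1 rose by 3 h, so the closest pair of the family, TPL and TPR1, ended with opposite changes. At 1 h against 0 h in ecap-2, 1 of the 7 genes rose and 2 fell, beside 16.6% and 17.0% of the 17835 genes tested. A gene is called here at an adjusted p under 0.05 (limma, Benjamini-Hochberg over all genes tested). In wild type at 1 h, 1 rose and 3 fell, beside 17.3% and 16.7%. At 3 h against 0 h in ecap-2, 3 rose and 3 fell, beside 23.1% and 22.2%. In wild type at 3 h, 2 rose and 4 fell, beside 21.4% and 20.1%. At 3 h against 1 h in ecap-2, 2 rose and 2 fell, beside 20.9% and 19.7%, and in wild type 2 rose and 2 fell, beside 14.5% and 14.5%. Because so many of all genes were called, the number of calls is no mark of these 7 genes. Their directions and courses are described gene by gene.

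NINJA ties JAZ proteins to TOPLESS (chromosome 4, 14264034 to 14266786, minus strand). In ecap-2 it measured 30.1, 27.9 and 26.2 FPKM at 0 h, 57.1, 55.6 and 52.4 FPKM at 1 h, and 45.4, 44.0 and 44.5 FPKM at 3 h. In wild type it measured 25.9, 23.6 and 22.6 FPKM at 0 h, 44.3, 53.1 and 45.8 FPKM at 1 h, and 35.3, 38.6 and 38.9 FPKM at 3 h. Within each genotype the 3 times did not overlap. On the log2(FPKM + 1) scale NINJA rose at 1 h by 0.95 ± 0.07 in ecap-2 and by 0.96 ± 0.07 in wild type (± SE, limma adjusted p = 2.4e-08 and 2.2e-08). At 3 h it was still up, by 0.65 ± 0.07 in ecap-2 and 0.63 ± 0.07 in wild type (adjusted p = 1.7e-06 and 3.1e-06). It then fell between 1 and 3 h, by 0.29 ± 0.07 in ecap-2 and 0.33 ± 0.07 in wild type (adjusted p = 0.0047 and 0.0026). The rise at 1 h was larger than the changes of 93.3% of tested genes in ecap-2 and 93.2% in wild type. Both rises held under all 15 alternatives and without any of the 18 libraries. The fall after 1 h was lost with scaling to 5 reference genes (-0.11 in ecap-2, adjusted p = 0.23, and -0.17 in wild type, adjusted p = 0.079), a scaling that moved the median of all genes by 0.16 and 0.15 in those comparisons.

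TPL gave the family its name, and its gene lies on chromosome 1 (5414817 to 5421033, minus strand). In ecap-2 it measured 63.8, 59.4 and 58.6 FPKM at 0 h, 46.6, 46.0 and 45.1 FPKM at 1 h, and 54.6, 52.6 and 51.8 FPKM at 3 h. Wild type libraries held 55.3, 61.5 and 50.9 FPKM at 0 h, 43.3, 49.4 and 45.0 FPKM at 1 h, and 44.1, 43.3 and 43.5 FPKM at 3 h. All libraries on JA lay below those of the same genotype at 0 h. TPL fell at 1 h by 0.39 ± 0.07 in ecap-2 and by 0.28 ± 0.07 in wild type on the log2 scale (adjusted p = 0.00019 and 0.0036). The wild type call was lost when only the libraries compared were fitted (adjusted p = 0.056). At 3 h it was down by 0.19 ± 0.07 in ecap-2 and by 0.35 ± 0.07 in wild type (adjusted p = 0.028 and 0.00046). Between 1 and 3 h TPL rose in ecap-2 by 0.20 ± 0.07 (adjusted p = 0.022), while in wild type the change was -0.07 ± 0.07 (adjusted p = 0.47). The difference between these changes was 0.27 ± 0.09 and did not pass (adjusted p = 0.11).
The ecap-2 call at 3 h was lost with reference gene scaling (-0.01, adjusted p = 0.91), where the median of all genes was at 0.149. The call was lost too with a correction for GC content and length (-0.13, adjusted p = 0.054). It was also lost without ecap-2 0 h replicate 1 (adjusted p = 0.098) or ecap-2 3 h replicate 2 or 3 (0.071 and 0.076). The rise from 1 h was lost after rescaling to a common total (0.02, adjusted p = 0.79), where the median of all genes was at -0.146. With quantile normalization the rise was 0.12 and was lost as well (adjusted p = 0.13). Without ecap-2 1 h replicate 2 or 3, or ecap-2 3 h replicate 1, it had an adjusted p of 0.052, 0.068 and 0.08. TPL shares 103 exon bases, 2.47% of its exons, with AT1G15740 on the other strand. Strand use in counting is not given in the sources used here, so reads in that stretch cannot be told apart. AT1G15740 measured 13.5 ± 0.9, against 39.3 ± 6.1 FPKM at 0 h, in ecap-2 at 1 h, and 13.4 ± 1.3, against 36.6 ± 6.6 FPKM at 0 h, in wild type at 1 h.

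TPR1 is the nearest relative of TPL and is known for a part in immune signalling (chromosome 1, 30260818 to 30267125, minus strand). In ecap-2 it measured 22.4, 20.2 and 19.5 FPKM at 0 h, 19.8, 20.0 and 19.0 FPKM at 1 h, and 26.3, 26.5 and 25.1 FPKM at 3 h. In wild type it measured 20.3, 19.2 and 17.8 FPKM at 0 h, 17.6, 20.3 and 18.9 FPKM at 1 h, and 24.0, 22.5 and 23.4 FPKM at 3 h. The 0 and 1 h libraries overlapped in both genotypes, and the 3 h libraries lay above both. At 1 h its log2 change was -0.07 (95% interval -0.21 to 0.07) in ecap-2 and -0.01 (-0.15 to 0.13) in wild type. At 3 h TPR1 rose by 0.32 ± 0.07 in ecap-2 and by 0.27 ± 0.07 in wild type (adjusted p = 0.001 and 0.0033). The wild type rise held under all 15 alternatives and without any library. The ecap-2 one was 0.13 on rescaling to a common total (adjusted p = 0.093), under which the median of all genes was at -0.17, so that TPR1 stood 0.30 above it. Against 1 h, TPR1 rose by 0.39 ± 0.07 in ecap-2 and by 0.29 ± 0.07 in wild type (adjusted p = 0.00024 and 0.004).

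TPR2 is the co-repressor that the series title pairs with ECAP (chromosome 3, 5731519 to 5737854, plus strand). In ecap-2 it measured 27.5, 26.3 and 27.7 FPKM at 0 h, 21.2, 22.1 and 21.0 FPKM at 1 h, and 22.7, 23.3 and 24.4 FPKM at 3 h. Wild type libraries held 28.8, 31.7 and 30.3 FPKM at 0 h, 19.3, 25.3 and 21.6 FPKM at 1 h, and 24.1, 21.7 and 22.9 FPKM at 3 h. Every library on JA was below every library of its genotype at 0 h. TPR2 fell at 1 h by 0.33 ± 0.08 in ecap-2 and by 0.45 ± 0.08 in wild type (adjusted p = 0.0029 and 0.0002), and both falls held under all 15 alternatives and without any library. At 3 h it was down by 0.20 ± 0.08 in ecap-2 and by 0.39 ± 0.08 in wild type (adjusted p = 0.041 and 0.00059). The difference between the genotypes in the response was 0.12 ± 0.11 at 1 h and 0.19 ± 0.11 at 3 h, and neither passed (adjusted p = 0.91 and 0.37).
The ecap-2 call at 3 h was a narrow one. It was lost with reference gene scaling (-0.03, adjusted p = 0.74), where the median of all genes was at 0.149. The call was lost as well with the GC and length correction (adjusted p = 0.071). Leaving out ecap-2 0 h replicate 1, 2 or 3 gave an adjusted p of 0.0824, 0.0571 and 0.103, and so did not keep the call. The same was true of ecap-2 3 h replicate 1 (0.12), ecap-2 3 h replicate 2 (0.092) and wild type 3 h replicate 3 (0.051).

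TPR4 (chromosome 3, 5364081 to 5372293, minus strand) passed at 3 h and not at 1 h. In ecap-2 it measured 31.9, 31.6 and 30.7 FPKM at 0 h, 28.9, 29.1 and 28.9 FPKM at 1 h, and 24.0, 23.9 and 22.9 FPKM at 3 h. In wild type it measured 29.6, 30.6 and 27.4 FPKM at 0 h, 25.5, 31.4 and 26.9 FPKM at 1 h, and 22.0, 23.4 and 22.9 FPKM at 3 h. The 3 h libraries lay below all others of their genotype. At 1 h the log2 change was -0.11 (95% interval -0.25 to 0.03) in ecap-2 and -0.06 (-0.21 to 0.08) in wild type. At 3 h TPR4 fell by 0.40 ± 0.07 in ecap-2 and by 0.34 ± 0.07 in wild type (adjusted p = 0.00012 and 0.0005), under all 15 alternatives and without any library. Between 1 and 3 h it fell by 0.28 ± 0.07 in each genotype (adjusted p = 0.0029 in ecap-2 and 0.0045 in wild type). That later fall was lost with reference gene scaling in ecap-2 (-0.10, adjusted p = 0.17) and in wild type (-0.12, adjusted p = 0.14). Under that scaling the median of all genes was at 0.168 in ecap-2 and 0.143 in wild type. TPR4 overlaps the protein-coding gene AT3G15870 on the other strand, which has no FPKM values here. With strand not stated, the part of AT3G15870 reads in the TPR4 values was not tested.

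TPR3 was the lowest of the family (chromosome 5, 9508718 to 9515565, minus strand). In ecap-2 it measured 7.73, 7.86 and 8.58 FPKM at 0 h, 8.50, 8.66 and 8.74 FPKM at 1 h, and 10.2, 10.9 and 9.74 FPKM at 3 h. Wild type libraries held 8.40, 8.85 and 8.77 FPKM at 0 h, 6.10, 8.51 and 7.09 FPKM at 1 h, and 10.3, 9.19 and 9.05 FPKM at 3 h. The wild type 1 h libraries had the widest spread, and 1 of them overlapped the 0 h ones. At 1 h the change was 0.09 ± 0.09 in ecap-2 (adjusted p = 0.48), while TPR3 fell by 0.24 ± 0.09 in wild type (adjusted p = 0.044). At 3 h it rose by 0.31 ± 0.09 in ecap-2 (adjusted p = 0.0082) and changed by 0.12 ± 0.09 in wild type (adjusted p = 0.31). The wild type change passed with the GC and length correction (0.21, adjusted p = 0.038) and with reference genes (0.27, adjusted p = 0.0082), a scaling that moved the median of all genes by 0.145. Against 1 h it rose by 0.36 ± 0.09 in wild type (adjusted p = 0.0055) and changed by 0.22 ± 0.09 in ecap-2 (adjusted p = 0.053). The ecap-2 change passed under 7 of the 15 alternatives, among them quantile normalization (0.22, adjusted p = 0.036), reference genes (0.40, adjusted p = 0.00048) and library weights (0.25, adjusted p = 0.01), and without wild type 1 h replicate 1 or 2 (0.024 and 0.02). It was 0.06 on a common total (adjusted p = 0.6). The median of all genes in that comparison stood at -0.146 on a common total and at 0.168 with reference genes. The differences between the genotypes did not pass (0.33 ± 0.13 for the 1 h response and 0.20 ± 0.13 for the 3 h response, with adjusted p of 0.46 and 0.42).
The ecap-2 rise at 3 h was lost after rescaling to a common total (0.14, adjusted p = 0.16), where it stood 0.31 above the median of all genes. The wild type fall at 1 h was lost with the GC and length correction (-0.18, adjusted p = 0.088) and when only the libraries compared were fitted (adjusted p = 0.16). Without wild type 1 h replicate 1 it was -0.14 (adjusted p = 0.22). Leaving out 1 of the wild type 0 h libraries (replicates 1, 2 and 3) gave an adjusted p of 0.06, 0.11 and 0.097, and wild type 1 h replicate 3 gave 0.099. Without wild type 3 h replicate 2 or 3, ecap-2 0 h replicate 2, any of the 3 ecap-2 1 h libraries, or ecap-2 3 h replicate 1, it ran from 0.051 to 0.054. TPR3 shares 161 exon bases, 4.21% of its exons, with AT5G27020 on the other strand. The highest group mean of AT5G27020 was 0.037 FPKM, in wild type at 0 h. TPR3 also overlaps AT5G04345, a long noncoding RNA gene on the other strand that has no FPKM values here, and its part was not tested.

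**Figure D2:**
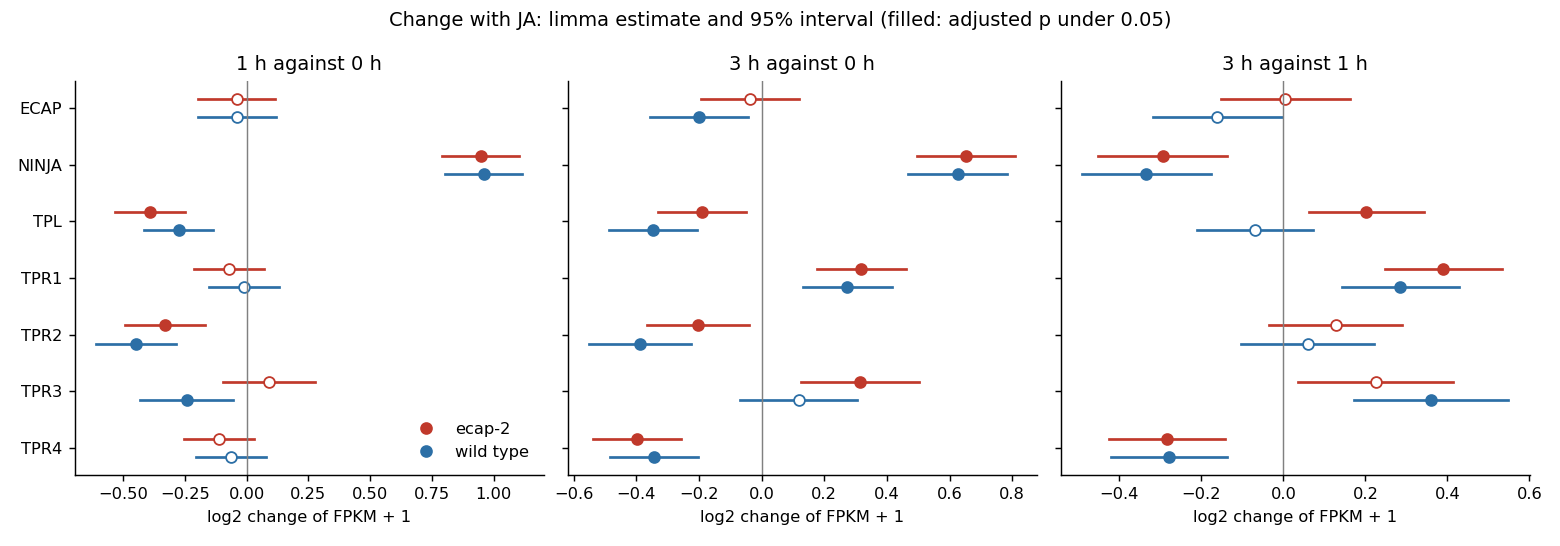
Change of each gene with JA as log2(FPKM + 1), with the limma estimate and its 95% interval, ecap-2 above wild type. Filled points passed an adjusted p of 0.05. NINJA stands to the right of 0 against 0 h in both genotypes (0.95 and 0.96 at 1 h), and TPL and TPR2 to its left.

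ECAP itself differed far more between the genotypes than with JA (chromosome 3, 21516635 to 21519862, plus strand). It measured 2.43, 2.65 and 2.89 FPKM in ecap-2 at 0 h, against 16.1, 14.4 and 14.8 FPKM in wild type. At 1 h it measured 2.48, 2.48 and 2.67 FPKM in ecap-2, against 14.1, 14.9 and 14.9 FPKM in wild type. At 3 h it measured 2.62, 2.34 and 2.72 FPKM in ecap-2, against 12.3, 12.8 and 13.8 FPKM in wild type. The ecap-2 mean was 0.176, 0.174 and 0.197 of the wild type mean at 0, 1 and 3 h, so some signal remained in every ecap-2 library. The first 1105 exon bases of ECAP, 39.2% of its exons, lie over PDCB5 on the other strand (chromosome 3, 21516635 to 21517739). PDCB5, whose product binds callose at plasmodesmata, measured 5.09 ± 0.57, 5.31 ± 0.80 and 7.02 ± 0.70 FPKM in ecap-2 at 0, 1 and 3 h, against 4.12 ± 0.63, 6.16 ± 1.17 and 5.61 ± 0.54 FPKM in wild type. With strand not stated, the part of PDCB5 reads in the remaining ECAP signal was not tested. In ecap-2 the change of ECAP with JA was -0.04 at 1 h and -0.04 at 3 h. In wild type it was -0.04 at 1 h and it fell by 0.20 ± 0.07 at 3 h (adjusted p = 0.04). That fall had an adjusted p of 0.064 with a pseudocount of 0.1 and 0.059 when only the libraries compared were fitted. With reference gene scaling it was -0.05 (adjusted p = 0.61), where the median of all genes was at 0.144. It was lost without wild type 0 h replicate 1 or 3 (0.16 and 0.061) and without wild type 3 h replicate 1 or 2 (0.15 and 0.099). Set beside NINJA in wild type, ECAP was at 15.07, 14.63 and 12.99 FPKM and NINJA at 24.0, 47.7 and 37.6 FPKM at 0, 1 and 3 h.

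Between the genotypes, NINJA was slightly higher in ecap-2 at each time, TPL was higher at 3 h, and TPR2 did not pass at any time. At 0 h, 1 of the 7 genes was higher in ecap-2 and 1 lower, beside 21.2% and 23.0% of all tested genes. At 1 h, 2 were higher and 1 lower, beside 17.9% and 21.9%. At 3 h, 2 were higher and 1 lower, beside 28.8% and 28.6%. Averaged over times, 3 were higher and 1 lower, beside 33.6% and 35.1%. The gene that was lower was ECAP in each case. NINJA averaged 28.1 ± 2.0 FPKM in ecap-2 and 24.0 ± 1.7 FPKM in wild type at 0 h (log2 difference 0.22 ± 0.07, adjusted p = 0.026). At 1 h it averaged 55.0 ± 2.4 FPKM in ecap-2 and 47.7 ± 4.7 FPKM in wild type (0.20 ± 0.07, adjusted p = 0.038). At 3 h it averaged 44.6 ± 0.7 FPKM in ecap-2 and 37.6 ± 2.0 FPKM in wild type (0.24 ± 0.07, adjusted p = 0.01). The libraries lay apart at 0 and 3 h and overlapped at 1 h. Over the 3 times together the difference was 0.22 ± 0.04 (adjusted p = 0.00022). It was larger than 47.1% of the differences of all tested genes, so its size was not unusual in this series.
TPL averaged 53.0 ± 1.4 FPKM in ecap-2 at 3 h and 43.6 ± 0.4 FPKM in wild type, with no overlap (0.27 ± 0.07, adjusted p = 0.0021). Its difference was 0.12 at 0 h (adjusted p = 0.16) and 0.00 at 1 h (0.97), and over all times 0.13 ± 0.04 (adjusted p = 0.0057), which was -0.02 on a common total, where the median of all genes was at -0.138, and so 0.12 above that median. As deposited, TPR1 passed only over all times together (0.10 ± 0.04, adjusted p = 0.027), and was at -0.04 on a common total, 0.10 above the same median. At 3 h its libraries lay apart (25.1 to 26.5 FPKM in ecap-2 and 22.5 to 24.0 FPKM in wild type), and it did not pass (0.15, adjusted p = 0.063). It did pass at 3 h with trimmed mean scaling (adjusted p = 0.028), with only the libraries compared (0.04) and with library weights (0.012). The TPL call over all times was also lost with quantile normalization (0.05, adjusted p = 0.17) and with reference genes (0.04, adjusted p = 0.39). In these 2 scalings the median of all genes was at 0.022 and -0.09. The TPR1 call was lost with reference genes (0.01, adjusted p = 0.82) and with the GC and length correction (0.05, adjusted p = 0.17). TPR3 passed at 1 h, where it averaged 8.63 ± 0.12 FPKM in ecap-2 and 7.23 ± 1.21 FPKM in wild type (0.24 ± 0.09, adjusted p = 0.043). TPR2 averaged 27.2 ± 0.7 FPKM in ecap-2 at 0 h and 30.3 ± 1.4 FPKM in wild type, with no overlap, and did not pass (-0.15, 95% interval -0.31 to 0.01, adjusted p = 0.12). Averaged over times TPR2 differed by -0.05 ± 0.04 (adjusted p = 0.33). TPR4 had differences of 0.10, 0.06 and 0.05 at 0, 1 and 3 h, and none passed as deposited. Over all times TPR4 passed with trimmed mean scaling (0.09, adjusted p = 0.023) and with library weights (0.08, adjusted p = 0.024). TPR3 over all times passed with quantile normalization (0.15, adjusted p = 0.0069). On a common total TPR2 and TPR4 at 3 h passed as lower in ecap-2 (-0.19 and -0.18, adjusted p = 0.03 and 0.023). The median of all genes was there at -0.198.

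These differences depend on the scale. Rescaled to a common total, NINJA differed by 0.10, 0.11 and 0.01 at 0, 1 and 3 h (adjusted p = 0.29, 0.24 and 0.89), and by 0.07 over all times (adjusted p = 0.13). TPL at 3 h differed by 0.04 (adjusted p = 0.57) on that scale. That rescaling moved the median difference of all genes by -0.108, -0.085 and -0.204 at 0, 1 and 3 h. Against the moved median, NINJA still stood 0.21 higher in ecap-2 at each time and TPL 0.24 higher at 3 h. With reference gene scaling NINJA differed by 0.12, 0.10 and 0.16, and passed at no single time. NINJA stood there beside a median of all genes at -0.091, -0.107 and -0.069. With the GC and length correction it differed by 0.14, 0.14 and 0.08 and likewise did not pass, nor did it with quantile normalization at 1 and 3 h (0.15 and 0.15, adjusted p = 0.11 and 0.086). With only the libraries compared in the fit, NINJA did not pass at 0 or 1 h (adjusted p = 0.076 and 0.093). TPR3 at 1 h was lost on a common total (0.15, adjusted p = 0.15), with reference genes (0.14, adjusted p = 0.14), with the GC and length correction (adjusted p = 0.055) and with only the libraries compared (adjusted p = 0.13). The median of all genes at 1 h was at -0.101 on a common total and -0.107 with reference genes. TPR2 at 0 h passed, lower in ecap-2, after rescaling to a common total (-0.27, adjusted p = 0.0056), with reference genes (-0.25, adjusted p = 0.0026) with quantile normalization (-0.19, adjusted p = 0.027) and with library weights (-0.20, adjusted p = 0.011). Against the median of all genes it stood at -0.16 on a common total, -0.16 with reference genes and -0.21 with quantile normalization. Averaged over times TPR2 passed on a common total (-0.195, adjusted p = 0.00047) and with reference genes (-0.142, adjusted p = 0.0014), where it stood 0.057 and 0.052 below the moved median.
Single libraries also decided some calls. NINJA at 0 h was lost without wild type 0 h replicate 2 or 3 (adjusted p = 0.072 and 0.1) or ecap-2 0 h replicate 1 or 2 (0.11 and 0.053). At 1 h it was lost without wild type 1 h replicate 1 or 3 (0.14 and 0.12) or ecap-2 1 h replicate 1 or 2 (0.12 and 0.092), and at 3 h without wild type 3 h replicate 1 (0.054). TPR3 at 1 h was lost on leaving out either wild type 1 h replicate 1 (0.14, adjusted p = 0.22) or replicate 3 (adjusted p = 0.095). It was also lost without any of the 3 ecap-2 1 h libraries (adjusted p = 0.0775 to 0.0962). Without wild type 0 h replicate 2, wild type 3 h replicate 2, ecap-2 0 h replicate 2 or ecap-2 3 h replicate 1, its adjusted p was 0.051 to 0.052. Leaving out a library also added calls. TPL at 0 h passed without wild type 0 h replicate 2 (0.19, adjusted p = 0.034), TPR2 at 0 h without wild type 1 h replicate 2 (adjusted p = 0.0497) and TPR1 at 3 h without ecap-2 0 h replicate 1 (0.046). TPR3 and TPR4 over all times passed without wild type 1 h replicate 2 (0.12 and 0.10, adjusted p = 0.025 and 0.011). TPR1 over all times was lost without wild type 0 h replicate 3, wild type 1 h replicate 1, wild type 3 h replicate 2 or ecap-2 0 h replicate 1 (adjusted p = 0.055 to 0.058).

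**Figure D3:**
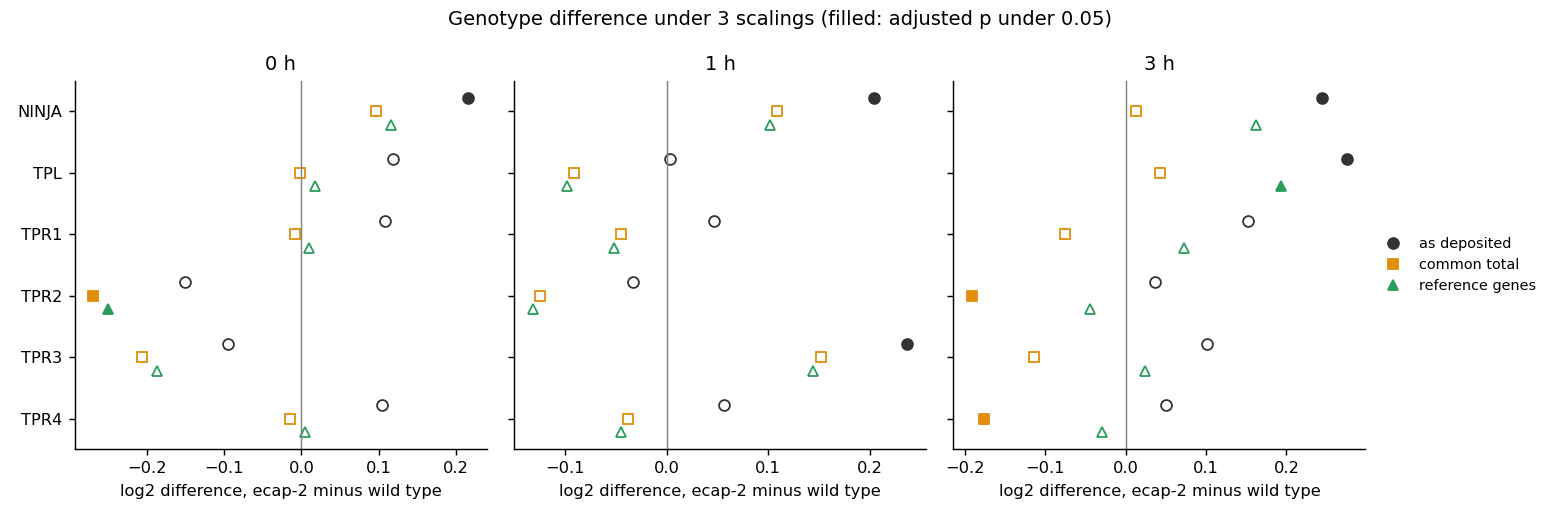
Genotype difference of NINJA and the TOPLESS genes at each time, as log2 of ecap-2 minus wild type, under the values as deposited, a common total and reference gene scaling. Filled points passed an adjusted p of 0.05. NINJA lies right of 0 under all 3 scalings and passes only with the values as deposited. On a common total TPR2 and TPR4 at 3 h change sides and pass, and lie 0.007 and 0.022 above the median of all genes at -0.198.

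Whether ecap-2 altered the response of these genes to JA was tested by the difference of the responses. None of the 7 passed for the 1 h response, the 3 h response or the change between 1 and 3 h, where 0.314%, 2.42% and 3.22% of all tested genes did (limma, either direction). By limma's p before adjustment, TPR3 at 1 h and TPL between 1 and 3 h were under 0.05 (0.017 and 0.01). For NINJA the responses differed by -0.01 at 1 h (95% interval -0.23 to 0.21) and by 0.03 at 3 h (-0.19 to 0.25). For TPR2 the interval was -0.11 to 0.35 at 1 h and -0.04 to 0.42 at 3 h. Each of these intervals includes 0, and with 3 libraries a group the values remain compatible with any size within them.

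The make-up of the TOPLESS family does not depend on the scale of a library, because each share is taken within it. The summed FPKM of TPL and TPR1 to TPR4 was 147.9 ± 4.7, 124.5 ± 1.6 and 136.3 ± 2.0 in ecap-2 at 0, 1 and 3 h, against 143.1 ± 8.4, 122.0 ± 11.8 and 122.1 ± 2.3 in wild type. The order of the genotypes in this sum depends on the scale: on a common total it was 147.3, 123.3 and 118.9 in ecap-2, against 155.3, 129.1 and 125.5 in wild type, which turns the order round at each time. TPL supplied 41.0 ± 0.6%, 36.9 ± 0.4% and 38.9 ± 0.7% of it in ecap-2, against 39.0 ± 1.4%, 37.7 ± 1.1% and 35.8 ± 0.3% in wild type. The genotypes lay apart in this share at 3 h and overlapped at 0 and 1 h. TPR1 supplied 14.0 ± 0.6%, 15.7 ± 0.2% and 19.1 ± 0.3% in ecap-2, against 13.4 ± 0.8%, 15.6 ± 0.4% and 19.1 ± 0.3% in wild type. The genotypes overlapped in its share at every time, and its 3 h libraries lay above all earlier ones. TPR2 supplied 18.4 ± 0.6%, 17.2 ± 0.3% and 17.2 ± 0.9% in ecap-2, against 21.2 ± 1.1%, 18.0 ± 0.8% and 18.7 ± 0.6% in wild type. At 0 h all ecap-2 libraries were below all wild type libraries in that share, and at 1 and 3 h they overlapped. TPR4 supplied 21.2 ± 0.5%, 23.3 ± 0.3% and 17.3 ± 0.2% in ecap-2, against 20.4 ± 0.3%, 22.9 ± 0.4% and 18.7 ± 0.9% in wild type. The ecap-2 libraries were all above the wild type ones at 0 h and all below them at 3 h. TPR3 supplied 5.46 ± 0.44%, 6.94 ± 0.17% and 7.53 ± 0.37% in ecap-2, against 6.08 ± 0.37%, 5.90 ± 0.43% and 7.79 ± 0.43% in wild type, and the genotypes lay apart only at 1 h. NINJA, set against the family sum, was at 19.0 ± 0.8%, 44.2 ± 1.5% and 32.8 ± 0.6% in ecap-2, against 16.8 ± 1.3%, 39.1 ± 0.7% and 30.8 ± 2.2% in wild type. The ratio more than doubled within 1 h in both genotypes, and at 1 h the ecap-2 libraries (42.7% to 45.6%) were all above the wild type ones (38.3% to 39.7%). Since these quantities combine the chosen genes, they are given with no p.

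**Figure D4:**
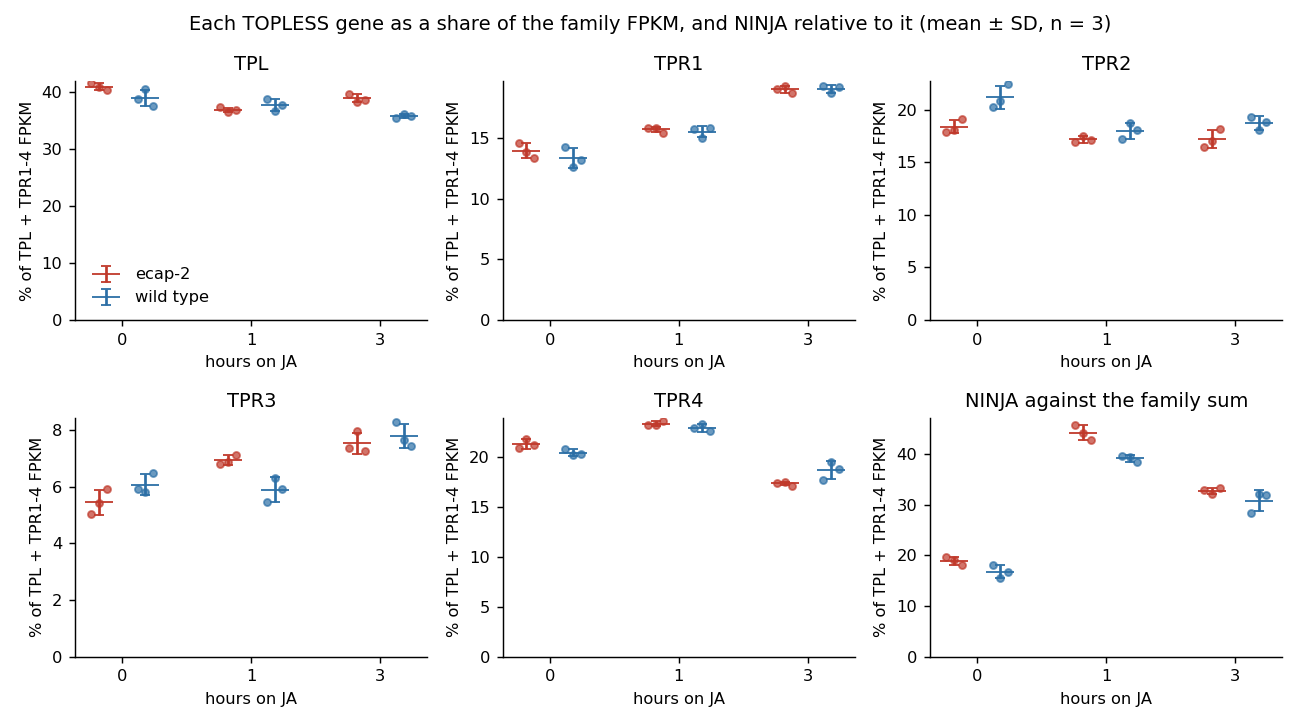
Share of each TOPLESS gene in the summed FPKM of the 5 genes, and NINJA as a percentage of that sum, against hours on JA, ecap-2 left of wild type. Points are libraries and bars are mean ± SD (n = 3). TPR1 gains share at 3 h (19.1% in both genotypes) while TPR4 loses it, and NINJA reaches 44.2% in ecap-2 and 39.1% in wild type at 1 h.

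Within a group these genes varied less than most tested genes, in a ranking not matched for level. The SD between libraries of a group on the log2 scale ran from 0.072 for ECAP to 0.105 for TPR3, which placed them between the 9.98 and the 35.6 percentile of the tested genes. Across the 18 libraries TPL and TPR2 moved alike (Pearson r = 0.77), as did TPR1 and TPR3 (0.75). NINJA ran opposite to TPR2 (r = -0.84) and to TPL (-0.62), and TPR1 opposite to TPR4 (-0.61). Once each library was taken against its group mean these pairs had a positive r (0.33, 0.58 and 0.65). TPL and TPR1 had an r of 0.08 over all libraries, but 0.72 once each library was taken against its group mean. These correlations describe 18 libraries that share 6 group means and 1 depth each, and carry no p.
The tested genes whose course over the 18 libraries was most like that of NINJA were AT1G63010 (r = 0.99), ILR1, which releases amino acids from auxin and JA conjugates (0.98), and LOX6, a lipoxygenase of JA synthesis (0.98). For TPR1 they were GI, a clock component with evening expression (r = 0.96), TOE2, an AP2-type repressor of flowering (0.95), and the aconitase gene ACO1 (0.95). For TPL the first was AT5G49665 (0.95), for TPR2 AT5G19390 (0.96), for TPR3 the receptor-like kinase gene HSL1 (0.88) and for TPR4 AT4G15430 (0.96). For ECAP over the 9 wild type libraries it was AT2G25980 (0.95), then XRI1, a gene of the X-ray response (0.95). After each value was taken against its group mean, the r fell to 0.42 for NINJA and AT1G63010, 0.48 for NINJA and ILR1, 0.09 for NINJA and LOX6, and 0.64 for TPR1 and GI. Time on JA and time of day are shared by all these courses.

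The genes that work with these adaptors were read from lists beside them, with the same 17835 genes as background. Of all tested genes 16.6% rose and 17.0% fell at 1 h in ecap-2, 17.3% and 16.7% did in wild type, and at 3 h the shares were 23.1% and 22.2% in ecap-2 and 21.4% and 20.1% in wild type. Averaged over times 33.6% were higher in ecap-2 and 35.1% lower, and each count below is to be read beside these shares. The alternatives and the fits without 1 library were read for the 7 genes alone. Calls of the listed genes below were not checked under them. Of 13 JAZ genes, 11 had values here and were tested. Of these 11, 9 rose at 1 h in ecap-2 and 9 in wild type, and 9 and 11 did at 3 h, with none falling. The median log2 change at 1 h was 3.27 in ecap-2 and 3.21 in wild type, beside -0.01 and 0.01 over all tested genes. Averaged over times, 4 JAZ genes were higher in ecap-2 and 2 lower, beside 33.6% and 35.1% of all tested genes. Of COI1 and the 3 MYC genes, 3 rose at 1 h in each genotype, and 2 rose and 1 fell at 3 h. MYC2, the chief activator, averaged 71.9 ± 5.8 FPKM in ecap-2 at 3 h and 47.1 ± 2.0 FPKM in wild type (log2 difference 0.60, adjusted p = 0.00082). COI1 fell at 3 h by 0.32 in ecap-2 and by 0.41 in wild type (adjusted p = 0.001 and 0.00013). Averaged over times, 2 of these 4 were higher in ecap-2 and 1, MYC4, was lower (-0.48, adjusted p = 4.2e-06).
The AFP genes encode the relatives of NINJA, known for binding the abscisic acid factor ABI5. At 1 h, 2 of 4 rose in ecap-2 and 3 of 4 in wild type, and at 3 h 2 rose and 1 fell in ecap-2 and 2 rose in wild type. AFP1 measured 6.88 ± 1.32 FPKM in ecap-2 at 1 h and 10.8 ± 1.1 FPKM in wild type (-0.60, adjusted p = 0.0027). AFP3 measured 23.4 ± 2.5 FPKM in ecap-2 at 3 h and 14.9 ± 1.2 FPKM in wild type (0.61, adjusted p = 0.00043). Averaged over times, 1 AFP gene was higher in ecap-2 and 1 lower. The change of AFP3 between 1 and 3 h differed between the genotypes (0.68, adjusted p = 0.041).
Of 5 other TIFY and KIX adaptors, 4 had values here and were tested. Of these 4, 2 fell at 1 h in ecap-2 and none passed in wild type. At 3 h 1 rose in each genotype and 1 fell in ecap-2, and averaged over times 1 was higher in ecap-2. TIFY8 rose at 3 h by 0.46 in ecap-2 and by 0.51 in wild type (adjusted p = 0.00027 and 0.00011).
Among histone deacetylase and Mediator genes, partners of TOPLESS or of MYC2, 4 of the 6 on the list were tested: the deacetylase gene HDA9 and the Mediator genes MED13, MED21 and MED25. HDA19 and HDA6 were not analysed here. None of the 4 passed with JA at 1 or 3 h in either genotype. Over all times 2 were higher in ecap-2. MED13 measured 172.4 ± 30.2, 163.6 ± 7.6 and 204.4 ± 19.0 FPKM in ecap-2 at 0, 1 and 3 h, against 86.3 ± 10.9, 92.0 ± 0.5 and 100.3 ± 3.7 FPKM in wild type (0.94 over all times, adjusted p = 1.1e-09). MED25, the subunit that MYC2 binds, measured 13.7 ± 0.4 FPKM in ecap-2 at 0 h and 11.0 ± 1.1 FPKM in wild type (0.30, adjusted p = 0.0046).
Of 5 LEUNIG and SEUSS genes, another co-repressor group, 1 fell at 1 h in ecap-2 and 1 rose in wild type, and 1 rose at 3 h in each. Averaged over times, 3 were higher in ecap-2, among them LUH, at 43.9 ± 0.3 FPKM in ecap-2 at 3 h and 34.5 ± 0.6 FPKM in wild type (0.34, adjusted p = 0.00016).
Of 12 genes for other repressors that recruit TOPLESS, 10 were tested. At 1 h 2 rose and 1 fell in ecap-2, and 2 rose and 2 fell in wild type. At 3 h 3 rose and 4 fell in ecap-2, and 4 rose and 4 fell in wild type. BES1, a brassinosteroid transcription factor, fell at 1 h to 69.2 ± 5.6, against 172.0 ± 9.0 FPKM at 0 h, in ecap-2 and to 55.5 ± 7.4, against 144.3 ± 7.1 FPKM at 0 h, in wild type (-1.30 and -1.37, adjusted p = 6.9e-08 and 3.8e-08). ERF4, an EAR repressor of ethylene and JA responses, measured 59.8 ± 5.2 FPKM in ecap-2 at 3 h and 33.1 ± 4.5 FPKM in wild type (0.84, adjusted p = 5.4e-06). Its 3 h response was larger in ecap-2 by 0.58 (adjusted p = 0.049). NIMIN3, an interactor of the salicylic acid co-activator NPR1, measured 5.39 ± 0.65 FPKM in ecap-2 at 3 h and 19.3 ± 2.2 FPKM in wild type (-1.66, adjusted p = 9e-08). Averaged over times, 3 of the 10 were higher in ecap-2 and 3 lower, again beside 33.6% and 35.1% of all tested genes.
Beside these lists, the 5 reference genes used for scaling were not level. ACT2 fell at 3 h by 0.75 in ecap-2 and by 0.79 in wild type (adjusted p = 9e-08 and 5.3e-08), and 4 of the 5 were higher in ecap-2 over all times.

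**Figure D5:**
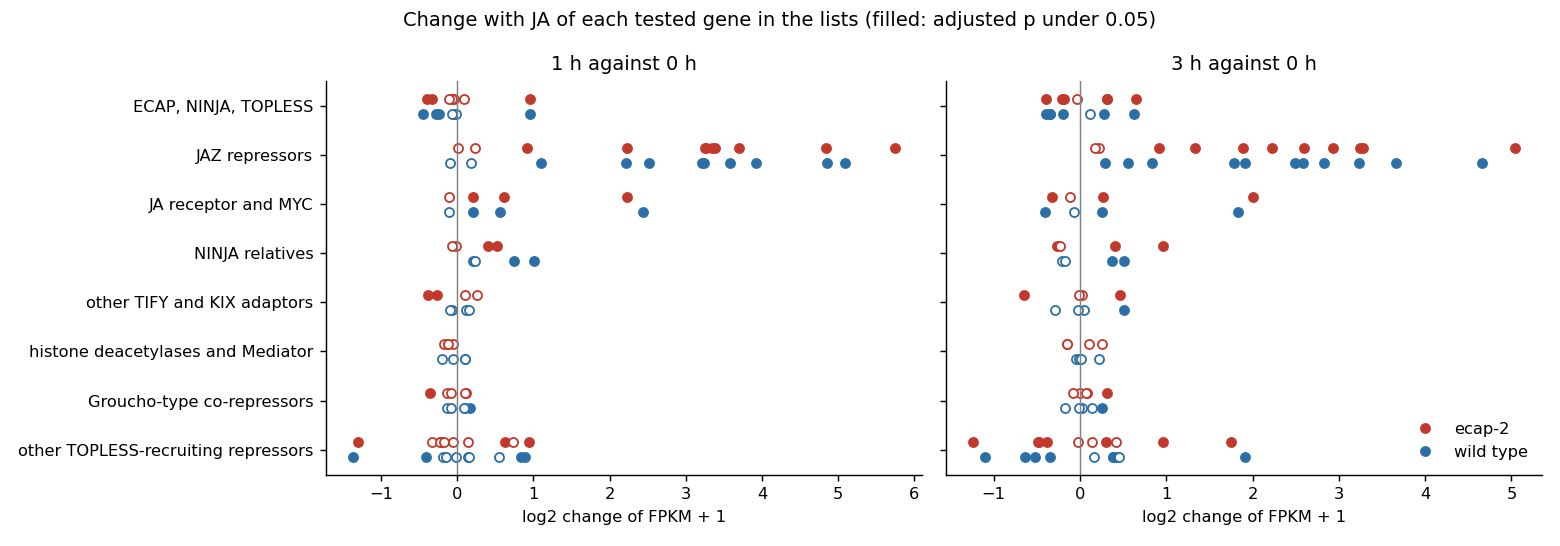
Log2 change with JA of each tested gene, for the 7 adaptor and co-repressor genes and 7 lists of their partners and relatives, ecap-2 above wild type in each row. Filled points passed an adjusted p of 0.05. NINJA and the TOPLESS genes stay within 1 log2 unit of 0, while JAZ genes reach 5.75 in ecap-2 and 5.10 in wild type at 1 h.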

How the data were processed

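RNA-seq libraries of whole seedlings were used, 3 for each of 6 groups. The values are FPKM per gene as deposited by the authors; TopHat2, Cufflinks and the TAIR10 build are named in the submitters' processing notes, and their versions are not given in the sources used here. Read depth behind an FPKM is therefore unknown, and no counting interval is given. Of 22209 listed genes, 17835 (80.3%) reached 1 FPKM in at least 3 libraries and were tested. On log2(FPKM + 1), limma 3.58.1 in R 4.3.3 fitted 6 group means over all 18 libraries with trended, robust empirical Bayes (12 residual degrees of freedom), and 13 comparisons were drawn, each adjusted by Benjamini-Hochberg over all tested genes with a threshold of 0.05. A fold change on this scale understates the change of low genes.

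Neighbouring levels are described within each group (Python 3.11.15); a planned exact sign-flip test over all libraries is not reported, since the neighbours were picked by the means it would test. Gene positions, promoters and coding sequences came from RefSeq (TAIR10.1), where 22122 genes matched, and pairs were aligned with Biopython 1.88. Amino acid sequences were not used here. The 15 alternatives covered the pseudocount, the filter, the scaling, GC content and length, the variance model, library weights, the libraries fitted and the replicate number as a block, and each of the 18 libraries was left out in turn. All 7 genes are named. Open to naming were the 3 genes of at least 5 FPKM closest to each by Pearson r, of which 1 to 3 are given, and from each list up to 4 genes of smallest p in a comparison, with JAZ, MYC, COI1 and AFP genes open throughout. The genes and lists were chosen with earlier results of these data known.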

Additional observations from a re-analysis of the deposited data

Results flagged for a closer look

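For TPR3 at 1 h on JA the libraries lay on opposite sides of their 0 h means. All 3 ecap-2 libraries at 1 h (8.50, 8.66 and 8.74 FPKM) were above the ecap-2 mean at 0 h, 8.06 FPKM, and all 3 wild type libraries at 1 h (6.10, 8.51 and 7.09 FPKM) were below the wild type mean at 0 h, 8.68 FPKM. The difference of the responses, ecap-2 minus wild type, was 0.33 ± 0.13 on the log2 scale and did not pass (limma adjusted p = 0.46, unadjusted p = 0.017). The ecap-2 change alone did not pass (0.09, 95% interval -0.10 to 0.28), and the 1 h libraries overlapped those at 0 h in both genotypes, so opposite changes were not shown.

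For TPL the 3 h libraries likewise lay on opposite sides of the 1 h means. All 3 ecap-2 libraries at 3 h (54.6, 52.6 and 51.8 FPKM) were above the ecap-2 mean at 1 h, 45.9 FPKM, and all 3 wild type libraries at 3 h (44.1, 43.3 and 43.5 FPKM) were below the wild type mean at 1 h, 45.9 FPKM. The wild type libraries at 3 h overlapped those at 1 h, and the wild type change did not pass (-0.07, 95% interval -0.21 to 0.07). The difference was 0.27 ± 0.09 and did not pass (limma adjusted p = 0.11). It passed with library weights (adjusted p = 0.031) and with the GC and length correction and replicate block together (0.0499). Groups of 3 libraries were too small to look for single outlying samples.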

How the results depend on the processing

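The 7 genes gave 91 values over 13 comparisons, 39 of them called. Over the 15 alternatives and the 18 fits without 1 library, 1175 of 1287 repeats of called values stayed called in the same direction, 108 were lost and 4 turned round. Those 4 came from rescaling to a common total or to the total of nuclear genes: averaged over times, TPL was at -0.017 and -0.019 and TPR1 at -0.043 and -0.045. These totals moved the median of all genes by -0.133 and -0.135 in that comparison, and TPL and TPR1 stayed above the moved median. On both totals TPR2 and TPR4 at 3 h, not called as deposited, were called as lower in ecap-2. TPR2 was at -0.191 (limma adjusted p = 0.03) and TPR4 at -0.176 (adjusted p = 0.023 and 0.024), beside a median of all genes at -0.198. Of the other values not called, 38 repeats gained a call. The count of genes called in wild type at 1 h was 2 instead of 4 when only the libraries compared were fitted. Between genotypes at 0 h it was 1 instead of 2 with that fit and with the GC and length correction, with or without the block. At 1 h it was 1 instead of 3 in the same fits, on both totals and with reference genes. Averaged over times it was 2 instead of 4 on both totals. Library weights gave 1 call instead of 0 for the difference in the 3 h response (TPL, 0.22) and for that in the change between 1 and 3 h (TPL, 0.26), and the GC and length correction with the replicate block gave 1 for that change. Without 1 library the count ran from 1 to 3 between genotypes at 0 h and from 1 to 3 at 1 h. The summed FPKM of the TOPLESS family in ecap-2 was 137.4 and 115.0 at 0 and 1 h with reference genes, and at 3 h 118.9 on a common total and 143.7 with reference genes. In wild type it was 155.3 at 0 h and 125.5 at 3 h on a common total, and 136.4 at 3 h with reference genes. The causes were not tested.

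The replicate block, with the replicate number as a term, changed no call of the 7 genes and left 3 called in ecap-2 at 1 h. Deviations from the group means had a median r of 0.08 over 45 same-numbered pairs (-0.157 to 0.322, 18 over 0.1) and of -0.03 over 90 differently numbered pairs (11 over 0.1). All 3 same-numbered pairs were over 0.1 for wild type 0 h with wild type 1 h (0.134 to 0.249) and with ecap-2 1 h (0.132 to 0.212), and not for the other pairs of groups. The numbers were therefore not taken as a pairing over the whole series, and a shared source of some same-numbered libraries was not tested. Small changes, such as the genotype differences of NINJA, lie near what 3 libraries a group and the choice of scale can settle.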
